A study of Mus musculus with 9 samples.

Results

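Haem oxygenase 1, the ferritin subunits and the genes that move iron into, between and out of cells were followed in mouse liver tumours under 2 treatments. The set holds 10 genes of the 32761 in the deposited table, picked by symbol: Hmox1, Blvra, Blvrb, Fth1, Ftl1, Slc40a1, Tfrc, Slc11a2, Trf and Hamp. They were proposed after the expression values of all 3 groups had been looked at, so their own levels and differences are given as a description, with no p-value. Counts of the 10 past a threshold are printed only beside those of all genes. All 10 passed the expression minimum used for testing other genes, a mean of 0.5 FPKM over the 9 libraries. FPKM divides a gene's fragments by its transcript length and by the total of the library, so levels of different genes can be set side by side.

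The tumours grew in the liver from Hepa1-6-luc, a luciferase-marked mouse hepatoma line, and were taken on day 14. The study had 6 treatment groups, of which 3 were sequenced with 3 libraries each. Control carried the tumour with no treatment named in the labels, and the Lenvatinib+anti-PD1 group received free lenvatinib, an inhibitor of VEGF and FGF receptor kinases, with an antibody against the T cell receptor PD1. The Co+Len@OVA+anti-PD1 group received a drug-loaded nanocluster at 2 mg/mL with the same antibody. Injections went into the tail vein, the nanocluster or free drug every 3 days and the antibody at 50 µg every 4 days. The labels leave Co unexplained and give neither mouse strain nor age. Nanocluster, its other components and the drug's formulation cannot be told apart, and neither lenvatinib nor the antibody was given alone in a sequenced group.

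Haem released from red cells and from haem proteins is opened by haem oxygenase into biliverdin, carbon monoxide and free iron. Biliverdin reductases turn biliverdin into bilirubin, and the iron is stored inside ferritin or leaves the cell through ferroportin. Iron circulates bound to transferrin, which cells take up through the transferrin receptor, while the liver hormone hepcidin removes ferroportin from the cell surface. In liver the hepatocytes make transferrin and hepcidin, and macrophages recycle the iron of old red cells. Iron regulatory proteins bind a stem-loop in several of these messengers when iron is short, blocking translation from a 5′ untranslated region (UTR) and protecting the messenger from decay when the loops sit in the 3′ UTR.

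The stem-loop is printed here for the genes that carry it, because it divides the set into messengers with a match and those without. It was searched as a C, any 5 bases, CAGTGN, with at least 4 of 5 base pairs between the bases on either side of the loop, in UTRs of GENCODE M21 transcripts. Capitals mark the 6-base loop, letters are DNA on the messenger's strand, and positions are on GRCm38.
Fth1, 5′ UTR, exon 1, chr19:9982733-9982759, + strand: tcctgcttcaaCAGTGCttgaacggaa
Ftl1, 5′ UTR, exon 1, chr7:45459780-45459806, - strand: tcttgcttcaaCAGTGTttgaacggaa
Slc40a1, 5′ UTR, exon 1, chr1:45925466-45925492, - strand: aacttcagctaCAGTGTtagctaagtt
Alas2, 5′ UTR, exon 1, chrX:150547459-150547485, + strand: tggttcgtcctCAGTGCagggcaacag
Slc11a2, 3′ UTR, exon 16, chr15:100395154-100395180, - strand: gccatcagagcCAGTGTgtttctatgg
Tfrc, 3′ UTR, exon 19, chr16:32631220-32631246, + strand: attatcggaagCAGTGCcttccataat
Tfrc, 3′ UTR, exon 19, chr16:32631599-32631625, + strand: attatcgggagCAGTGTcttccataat
Tfrc, 3′ UTR, exon 19, chr16:32631664-32631690, + strand: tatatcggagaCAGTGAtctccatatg
Tfrc, 3′ UTR, exon 19, chr16:32631711-32631737, + strand: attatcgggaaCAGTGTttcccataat
Exon numbers are those of the transcripts Fth1-201, Ftl1-201, Slc40a1-201, Alas2-201, Slc11a2-205 and Tfrc-201. Counted from the first C of the match, the sites lie 132, 170 and 224 bases before the coding sequence in Fth1, Ftl1 and Slc40a1. Tfrc holds 4 sites between 889 and 1380 bases after its coding sequence, and Slc11a2 holds 1, 38 bases after it, with 4 of the 5 pairs. Alas2, the erythroid haem synthesis enzyme, is not among the 10 genes and is shown for the same site 37 bases before its coding sequence. By the same rule 1.07% of 13133 searched genes have a match in a 5′ UTR and 5.66% in a 3′ UTR. Hmox1, Blvra, Blvrb, Trf and Hamp had no match in their UTRs, which says only that these letters were not found there. A match is a sequence feature, and binding was not measured.

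Libraries resembled each other in size, with 3.32e+05 to 3.73e+05 summed FPKM and 23575 to 26298 genes above 0. The file gives no counts, so the depth is unknown and no counting interval can be given. In each group the third library tended to lie between the other two. This held for 65.5% of 15353 tested genes in Co+Len@OVA+anti-PD1, 45.4% in Lenvatinib+anti-PD1 and 66.7% in Control, and for 7, 4 and 9 of the 10 genes described. If the third libraries are not independent tumours, standard errors and p-values from 9 libraries are too small, so values from libraries 1 and 2 alone are given too. The labels do not say that the 3 samples of a group came from separate mice, and p-values measure the spread between these samples. Hepatoma markers (Afp, Krt19 and others) were present in every group. Their summed levels were 329 to 378 FPKM in Co+Len@OVA+anti-PD1, 538 to 584 in Lenvatinib+anti-PD1 and 583 to 728 in Control. Afp, at 233 to 439 FPKM, and Krt19, at 61.4 to 197, weighed most. Gpc3 was at most 6.62 FPKM. H19 was at most 3.40 FPKM apart from 88.8 and 35.6 in libraries 2 and 3 of Lenvatinib+anti-PD1. Hepatocyte markers were also present in every library.

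**Figure D1:**
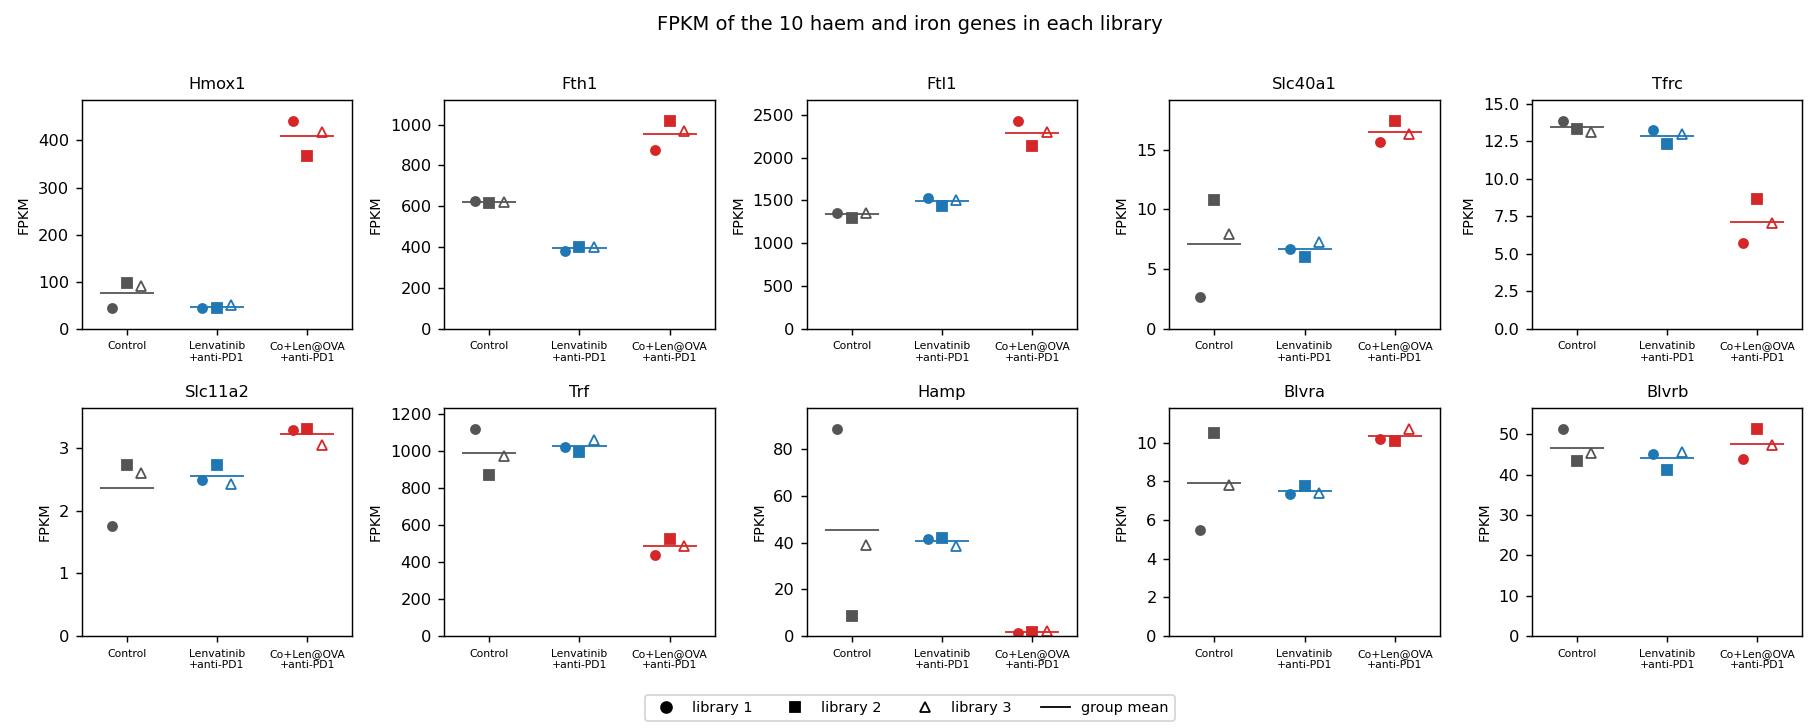
FPKM (vertical axes, each starting at 0) of the 10 genes in each of the 9 libraries, by treatment group; symbols mark library 1, 2 and 3 and lines the group means. Hmox1, Fth1, Ftl1, Slc40a1 and Slc11a2 are highest and Tfrc, Trf and Hamp lowest in all 3 Co+Len@OVA+anti-PD1 libraries.

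Under Co+Len@OVA+anti-PD1 the tumours held several times more Hmox1 messenger than Control, more of both ferritin subunits and of the iron exporter ferroportin (Slc40a1), and less transferrin (Trf), transferrin receptor (Tfrc) and hepcidin (Hamp). The metal transporter Slc11a2 was also higher in all 3 libraries, to a lesser degree. Lenvatinib+anti-PD1 tumours overlapped Control for these genes, apart from a lower Fth1 and a slightly higher Ftl1. Mean Hmox1 was also lower there, at 0.605 of Control, though its libraries overlapped. With the limma fit and a Benjamini-Hochberg adjusted p under 0.05, 7 of the 10 genes passed against Control, beside 33.6% of all genes tested. Of these 4 were higher and 3 lower, beside 20.9% and 12.7%. Between the treatments 7 passed as well (29.4% of all genes), 4 higher and 3 lower, beside 17.3% and 12.0%. Between Lenvatinib+anti-PD1 and Control 1 passed (23.7% of all genes), on the lower side. In that comparison 13.8% of all genes were called higher and 9.87% lower. From libraries 1 and 2 alone the counts were 0, 2 and 0, beside 0.521%, 2.38% and 0.345% of all genes. Since the genes were chosen on these contrasts, nothing is read from the counts. The 3 libraries of Co+Len@OVA+anti-PD1 did not overlap those of Control for 8 of the 10 genes (49.7% of all genes), nor those of Lenvatinib+anti-PD1 for 9 (54.8%). Lenvatinib+anti-PD1 and Control were apart for Fth1 and Ftl1 only (2 of 10; 43.5% of all genes). The 3 comparisons share libraries, so their values are not independent of each other.

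By level, Ftl1 was the most abundant of the 10 messengers, with a mean of 1705 FPKM over the 9 libraries, followed by Trf at 831 and Fth1 at 657. Trf exceeded Fth1 in every Control and Lenvatinib+anti-PD1 library, and Fth1 exceeded Trf in every Co+Len@OVA+anti-PD1 library. Hmox1 followed at 177, and Blvrb at 46.1 and Hamp at 29.3 came next. Tfrc (11.2), Slc40a1 (10.1) and Blvra (8.58) lay close together, and Slc11a2 was lowest at 2.70. The span between the highest and lowest library was 68.7-fold for Hamp, 10.1-fold for Hmox1 and 6.60-fold for Slc40a1, against 1.25-fold for Blvrb.

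Hmox1 (ENSMUSG00000005413) encodes the inducible haem oxygenase, the first and rate-limiting step of haem breakdown. Its level was 441, 367 and 419 FPKM in the 3 Co+Len@OVA+anti-PD1 libraries, 43.8, 44.2 and 50.9 in Lenvatinib+anti-PD1, and 43.6, 96.5 and 89.7 in Control. Every Co+Len@OVA+anti-PD1 library was far above the other 6, whereas Lenvatinib+anti-PD1 overlapped Control through the low first Control library. The group means were 409 ± 38.2, 46.3 ± 3.96 and 76.6 ± 28.8 (SD, n = 3), a 5.34-fold ratio of Co+Len@OVA+anti-PD1 to Control and 8.83-fold to Lenvatinib+anti-PD1. On the log2(FPKM + 0.5) scale, which is used for all fold changes here, the differences were 2.49 ± 0.27 (SE) and 3.13 ± 0.27, and libraries 1 and 2 alone gave 2.62 and 3.18. Lenvatinib+anti-PD1 minus Control was -0.64 ± 0.27, and it ranged from -1.001 without the first Control library to -0.43 without the second.

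The other enzymes of haem breakdown differed less. Hmox2, the constitutive haem oxygenase and not one of the 10, had means of 17.0 ± 1.58, 12.7 ± 0.468 and 14.9 ± 2.10 FPKM in Co+Len@OVA+anti-PD1, Lenvatinib+anti-PD1 and Control. It was not called against Control (limma adjusted p = 0.207). Between the treatments it was higher by 0.41 ± 0.11 (adjusted p = 0.0266), a call lost without either of 2 Co+Len@OVA+anti-PD1 libraries (1 or 3) or any Lenvatinib+anti-PD1 library. The ratio of Hmox1 to Hmox2 was 23.7 to 24.8 in Co+Len@OVA+anti-PD1, 3.39 to 4.20 in Lenvatinib+anti-PD1 and 3.48 to 5.88 in Control.

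Blvra (ENSMUSG00000001999), the biliverdin reductase that makes bilirubin IXα, was at 10.2, 10.1 and 10.7 FPKM in Co+Len@OVA+anti-PD1, 7.35, 7.76 and 7.39 in Lenvatinib+anti-PD1 and 5.47, 10.5 and 7.81 in Control. The nanocluster libraries were above all those of free lenvatinib, but the second Control library reached their range. The difference from Control was 0.40 ± 0.19 and fell to 0.18 without the first Control library. Blvrb (ENSMUSG00000040466), which also reduces flavins, was the steadiest gene of the set. It was at 43.8, 51.4 and 47.4 FPKM in Co+Len@OVA+anti-PD1, 45.2, 41.2 and 45.7 in Lenvatinib+anti-PD1 and 51.3, 43.4 and 45.5 in Control, with overlapping groups throughout. Its difference from Control was 0.03 ± 0.09, and -0.07 and -0.06 after rescaling the libraries by median-of-ratios and upper quartile factors.

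Ferritin stores iron in a shell of heavy and light subunits. Fth1 (ENSMUSG00000024661) encodes the heavy subunit, whose ferroxidase activity oxidises the iron as it enters. Its level was 877, 1017 and 970 FPKM in Co+Len@OVA+anti-PD1, 382, 400 and 399 in Lenvatinib+anti-PD1, and 627, 617 and 622 in Control. The 3 groups were fully apart, with Control in the middle and nearly without spread (622 ± 4.64, against 955 ± 71.4 and 394 ± 10.1). The differences were 0.62 ± 0.07 for Co+Len@OVA+anti-PD1 and -0.66 ± 0.07 for Lenvatinib+anti-PD1 against Control, and 1.27 ± 0.07 between the treatments. Libraries 1 and 2 gave 0.60, -0.67 and 1.27.

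Ftl1 (ENSMUSG00000050708) encodes the light subunit, which helps the iron core to form. Its level was 2429, 2135 and 2306 FPKM in Co+Len@OVA+anti-PD1, 1532, 1433 and 1506 in Lenvatinib+anti-PD1, and 1357, 1297 and 1354 in Control. Here too no group overlapped another, but the order differed from that of Fth1, since Control was the lowest group and not the middle one. The differences were 0.78 ± 0.07 and 0.16 ± 0.07 against Control, and 0.62 ± 0.07 between the treatments. Near-identical copies of Ftl1 could share its fragments, depending on how the authors counted: Ftl1-ps1 was at 68.4 ± 3.68, 43.7 ± 1.20 and 34.9 ± 8.25 FPKM in Co+Len@OVA+anti-PD1, Lenvatinib+anti-PD1 and Control.

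The subunits were therefore in different proportion. The ratio of Fth1 to Ftl1 was 0.361, 0.477 and 0.421 in Co+Len@OVA+anti-PD1, 0.249, 0.279 and 0.265 in Lenvatinib+anti-PD1 and 0.462, 0.476 and 0.460 in Control. Lenvatinib+anti-PD1 was below both other groups in every library, while Co+Len@OVA+anti-PD1 overlapped Control. Summed over both subunits, ferritin messenger was 3245 ± 81.6 FPKM in Co+Len@OVA+anti-PD1, 1884 ± 43.8 in Lenvatinib+anti-PD1 and 1958 ± 37.9 in Control. This sum made up 0.953%, 0.514% and 0.558% of a library's FPKM.

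**Figure D2:**
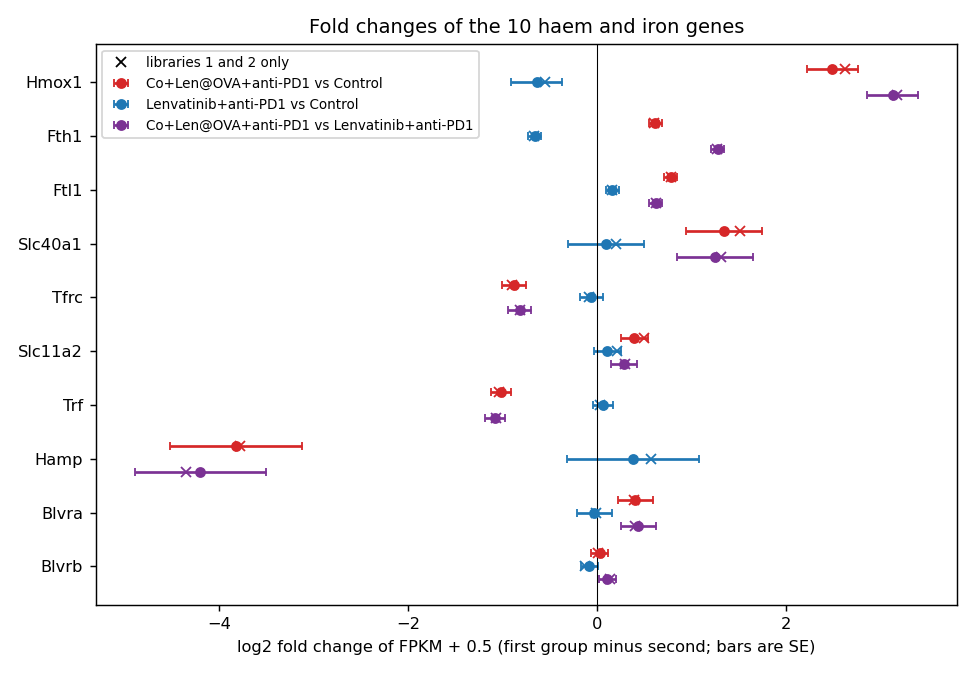
Log2 fold change of FPKM + 0.5 (horizontal axis, first group minus second) for each of the 10 genes in the 3 comparisons; bars are the standard error of the fit of 9 libraries and crosses the value from libraries 1 and 2 alone. Hmox1 (2.49 and 3.13) and Hamp (-3.82 and -4.20) lie farthest from 0 in the comparisons of Co+Len@OVA+anti-PD1 with Control and with Lenvatinib+anti-PD1.

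Slc40a1 (ENSMUSG00000025993) encodes ferroportin, the exporter through which cells release iron. It was at 15.6, 17.4 and 16.3 FPKM in Co+Len@OVA+anti-PD1, 6.67, 6.01 and 7.24 in Lenvatinib+anti-PD1 and 2.64, 10.8 and 7.90 in Control. Every nanocluster library was above the other 6, and the Control libraries spread over the whole range of the free-drug group and beyond. Against Control the difference was 1.34 ± 0.40 (1.51 from libraries 1 and 2), but 0.80 without the first Control library and 1.72 without the second. Against Lenvatinib+anti-PD1 it was 1.25 ± 0.40, and stayed between 1.18 and 1.31 with each library left out in turn. For Lenvatinib+anti-PD1 against Control the difference of 0.09 ± 0.40 had no stable sign (-0.45 to 0.47).

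On the side of uptake, Tfrc (ENSMUSG00000022797) encodes the transferrin receptor. Its level was 5.71, 8.66 and 7.07 FPKM in Co+Len@OVA+anti-PD1, 13.3, 12.3 and 13.0 in Lenvatinib+anti-PD1 and 13.9, 13.3 and 13.2 in Control. All 3 nanocluster libraries were below the rest, and the other groups overlapped. The differences were -0.88 ± 0.13 against Control and -0.82 ± 0.13 against Lenvatinib+anti-PD1, with Lenvatinib+anti-PD1 and Control apart by -0.06 ± 0.13. The ratio of the exporter to the receptor, Slc40a1 to Tfrc, was 2.01 to 2.73 in Co+Len@OVA+anti-PD1, 0.487 to 0.557 in Lenvatinib+anti-PD1 and 0.190 to 0.812 in Control.

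Slc11a2 (ENSMUSG00000023030), the divalent metal transporter DMT1 that carries iron out of endosomes, was the weakest of the set in level. It was at 3.29, 3.30 and 3.04 FPKM in Co+Len@OVA+anti-PD1, 2.48, 2.73 and 2.42 in Lenvatinib+anti-PD1 and 1.76, 2.72 and 2.59 in Control. The nanocluster libraries were all above the others, by 0.39 ± 0.14 against Control (0.23 without the first Control library) and 0.29 ± 0.14 against Lenvatinib+anti-PD1. Set beside the printed stem-loops, the carriers of a 5′ UTR match among the 10 (Fth1, Ftl1, Slc40a1) were all higher in Co+Len@OVA+anti-PD1 than in both other groups. Of the carriers of a 3′ UTR match, Tfrc was lower and Slc11a2 higher. The matches of Slc40a1, Tfrc and Slc11a2 were found only in transcripts Slc40a1-201, Tfrc-201 and Slc11a2-205. FPKM is given per gene, so it may include messengers without the match. The genes were chosen after these directions were seen, so nothing is read from this order. A 5′ UTR stem-loop acts on translation, which FPKM does not measure, and control through the stem-loops was not tested.

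Trf (ENSMUSG00000032554) encodes transferrin, the iron carrier of plasma. Its level was 438, 526 and 486 FPKM in Co+Len@OVA+anti-PD1, 1021, 994 and 1059 in Lenvatinib+anti-PD1 and 1119, 867 and 971 in Control. The nanocluster libraries were all below the other 6, which overlapped. The differences were -1.02 ± 0.11 against Control and -1.09 ± 0.11 against Lenvatinib+anti-PD1.

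Hamp (ENSMUSG00000050440) encodes hepcidin. It was at 1.29, 1.88 and 2.12 FPKM in Co+Len@OVA+anti-PD1, 41.4, 41.9 and 38.8 in Lenvatinib+anti-PD1 and 88.8, 8.51 and 39.0 in Control. The nanocluster libraries were lowest, the free-drug libraries nearly equal, and the Control libraries 10.4-fold apart. Against Control the difference was -3.82 ± 0.69 (-3.78 from libraries 1 and 2), ranging from -4.73 without the second Control library to -3.08 without the first. Against Lenvatinib+anti-PD1 it was -4.20 ± 0.69, and between -4.32 and -4.04 with each library left out. Lenvatinib+anti-PD1 against Control, at 0.38 ± 0.69, changed sign with the Control library left out (-0.53 to 1.13). Hamp2, a near-identical copy that could share fragments with Hamp, was at most 0.190 FPKM in Co+Len@OVA+anti-PD1, 1.63 to 2.05 in Lenvatinib+anti-PD1 and at most 0.451 in Control.

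Markers of other cells moved with these genes. In bulk tumours fewer cells of a type and less RNA per cell cannot be told apart. The summed level of 15 hepatocyte markers was 915 to 1206 FPKM in Co+Len@OVA+anti-PD1, 4100 to 4350 in Lenvatinib+anti-PD1 and 6069, 2795 and 3968 in the 3 Control libraries, and 14 of the 15 fell against Control (limma, adjusted p under 0.05). The share that fell was 93.3%, beside 12.7% of all genes. The Control libraries ranked in the same order for the hepatocyte sum, for Hamp and for Trf. The log2 changes of the 15 markers against Control ran from -4.96 for Ahsg to -0.06 for Hnf4a, with a median of -2.84, and albumin (Alb) was at -1.62. Of the 15, 3 lay below the -3.82 of Hamp and 13 below the -1.02 of Trf. Against Lenvatinib+anti-PD1 their median was -3.51, with 5 below Hamp and 13 below Trf. None of the 15 markers was at 0 in a whole group, and the part of hepatocyte RNA in the lower Hamp and Trf was not tested.

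The macrophage marker sum, like Hmox1 and Slc40a1, was highest in the Co+Len@OVA+anti-PD1 libraries. Over 12 genes it was 2241, 1913 and 2093 FPKM in Co+Len@OVA+anti-PD1, 487, 582 and 536 in Lenvatinib+anti-PD1 and 344, 1413 and 1076 in Control. Lyz2 weighed most, at 1004, 881 and 941, at 172, 231 and 202, and at 90.9, 317 and 267 FPKM. Csf1r, Mrc1 and Mertk were highest in the second Control library, the other markers in a Co+Len@OVA+anti-PD1 library. Within Co+Len@OVA+anti-PD1, Slc40a1 ranked opposite to the sum. The first Control library, lowest for this sum, was also lowest of the Controls for Hmox1, Slc40a1, Slc11a2 and Blvra. Of the 12 markers, 2 rose and none fell against Control (limma, adjusted p under 0.05), and 7 rose against Lenvatinib+anti-PD1. Calls were 16.7% and 58.3% of this list, beside 33.6% and 29.4% of all genes tested. Markers of other immune cells were summed too. For 9 T and NK cell markers the sums were 267 to 312 FPKM in Co+Len@OVA+anti-PD1, 89.2 to 93.6 in Lenvatinib+anti-PD1 and 23.8, 103 and 84.6 in Control, with the first Control library again lowest. Of these 9, 8 rose against Control and 7 were higher than in Lenvatinib+anti-PD1. The called shares were 88.9% and 77.8%, beside the same 33.6% and 29.4% of all genes. For 10 monocyte and neutrophil markers the sums were 82.1 to 191, 29.9 to 42.3 and 100.2 to 122 FPKM. Of them 2 were higher and 1 lower against Control, and 9 were higher than in Lenvatinib+anti-PD1. Here the called shares were 30% and 90%, again beside 33.6% and 29.4%.

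For 10 markers of Kupffer and iron-recycling macrophages the sums overlapped between Co+Len@OVA+anti-PD1 and Control, at 57.2 to 74.4 and 18.4 to 75.5 FPKM, and were 52.6 to 54.0 in Lenvatinib+anti-PD1. The list went both ways, with 4 higher and 2 lower against Control and 2 higher and 3 lower than in Lenvatinib+anti-PD1 (limma, adjusted p under 0.05). These calls were 60% and 50% of the list, beside 33.6% and 29.4% of all genes. The members named here were singled out after their values were seen. Clec4f, which marks resident Kupffer cells, was 0.145 ± 0.0600 FPKM in Co+Len@OVA+anti-PD1, 8.06 ± 0.361 in Lenvatinib+anti-PD1 and 3.18 ± 0.411 in Control. Marco, a scavenger receptor of macrophages, went the other way, at 13.0, 32.7 and 24.5 FPKM in Co+Len@OVA+anti-PD1, 4.29, 4.83 and 4.73 in Lenvatinib+anti-PD1 and 3.42, 3.98 and 4.67 in Control. Timd4, a further marker of resident cells, was 0.544 ± 0.268, 0.722 ± 0.129 and 0.430 ± 0.185 and was not called in any comparison. Spic, a transcription factor of iron-recycling macrophages, was 2.29 ± 0.277, 0.700 ± 0.150 and 0.555 ± 0.324, a rise of 1.45 ± 0.24 against Control (limma adjusted p = 0.00341; 0.129 from libraries 1 and 2). None of these markers was at 0 in a whole group, and the part of macrophages and other immune cells in the levels of Hmox1 and Slc40a1 was not tested.

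Globin messengers had the same order as Hmox1 across group means, but not across the libraries of either treated group. The 4 adult globin genes (Hba-a1, Hba-a2, Hbb-bs, Hbb-bt) summed to 2057, 2987 and 2523 FPKM in Co+Len@OVA+anti-PD1, 174, 430 and 291 in Lenvatinib+anti-PD1 and 294, 599 and 539 in Control. Per unit of globin, Hmox1 was 0.168 ± 0.0459, 0.176 ± 0.0743 and 0.159 ± 0.00934 in these groups, whose ranges overlapped. Within Control the ratio was 0.148, 0.161 and 0.166, so Hmox1 and globin kept nearly the same proportion from library to library. In the treated groups it was more spread, at 0.252, 0.103 and 0.175 in Lenvatinib+anti-PD1 and 0.215, 0.123 and 0.166 in Co+Len@OVA+anti-PD1. Within Co+Len@OVA+anti-PD1, where Hmox1 was 441, 367 and 419 FPKM, it ranked opposite to globin. In Lenvatinib+anti-PD1, Hmox1 was 43.8, 44.2 and 50.9 FPKM and globin was highest in library 2. Alas2, the erythroid haem synthesis enzyme, was 5.83, 7.39 and 6.83 FPKM in Co+Len@OVA+anti-PD1, above 1.87 to 2.62 in Lenvatinib+anti-PD1 and 1.22 to 2.77 in Control. Slc4a1, Klf1, Gata1 and Epb42 were at or under 1.12 FPKM in every library and were not tested. The part of blood in the level of Hmox1 was not tested.

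**Figure D3:**
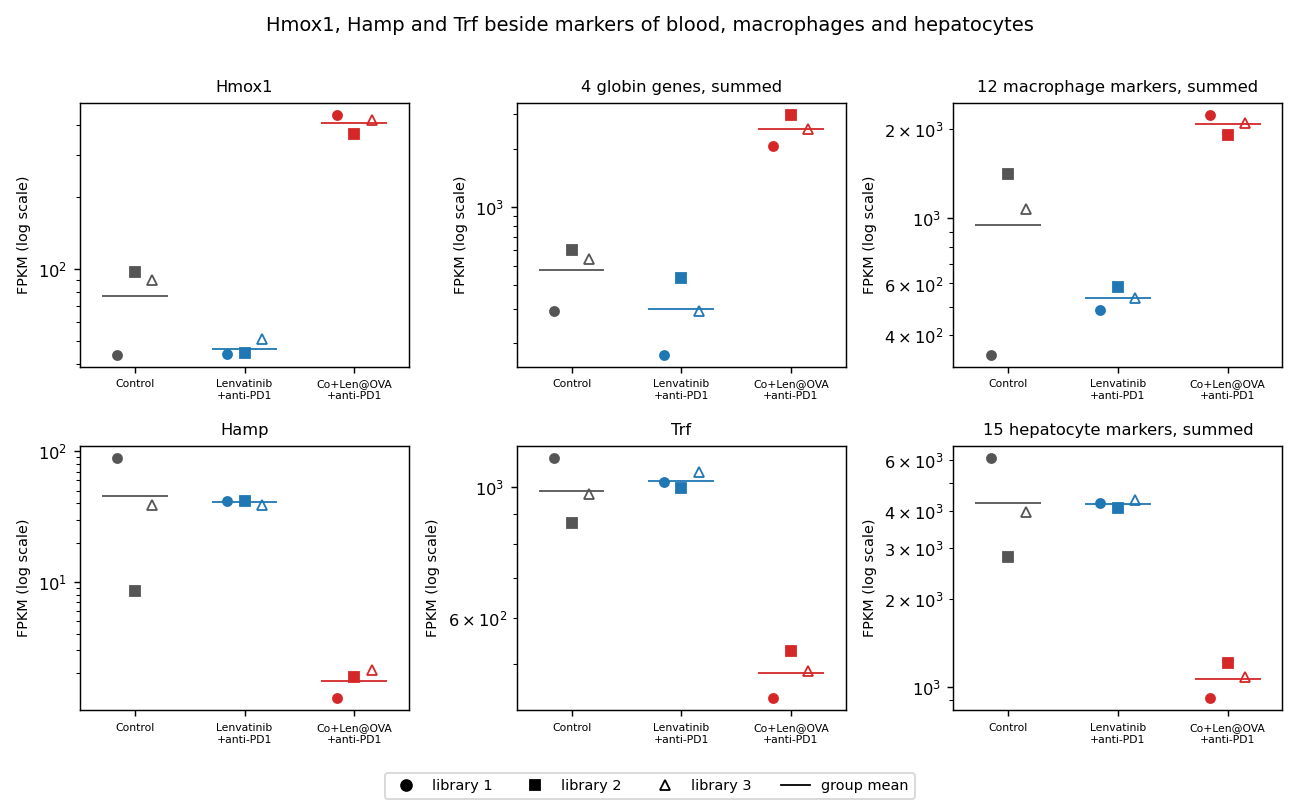
FPKM on log axes of Hmox1, Hamp and Trf beside the summed FPKM of 4 globin genes, 12 macrophage markers and 15 hepatocyte markers, per library and group, with lines at group means. Hmox1, globin and macrophage sums are highest and Hamp, Trf and the hepatocyte sum lowest in the 3 Co+Len@OVA+anti-PD1 libraries, and the Control libraries are spread widely in all 6 panels except Trf.

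Among 7602 genes at a mean of 5 FPKM or more, the 6 whose pattern over the 9 libraries was closest to that of Hmox1 were found by the root mean square difference of log2 values centred on each gene's mean. The closest was Ccl8, a chemokine that attracts monocytes, at a distance of 0.285. It was at 163, 119 and 146 FPKM in Co+Len@OVA+anti-PD1, 20.4, 19.7 and 20.1 in Lenvatinib+anti-PD1 and 10.8, 46.4 and 40.1 in Control. Next were Hba-a2 (0.349), Hba-a1 (0.361), Clec4d (0.372), a C-type lectin of myeloid cells, Hbb-bt (0.378) and Hbb-bs (0.382). Clec4d differed from Hmox1 within Control, where it was 1.82, 2.00 and 2.21 FPKM. These distances describe 9 libraries that share groups and carry no test.

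The genes around the 10 were taken from 7 lists of haem and iron biology, 111 genes in all, of which 105 were tested. Against Control, 22 rose and 17 fell in Co+Len@OVA+anti-PD1, with a median log2 change of 0.11 beside 0.13 for all genes tested. The 39 calls are 37.1% of those tested, beside 33.6% of all genes. In Lenvatinib+anti-PD1, 19 rose and 14 fell (median 0.09 beside 0.05), 31.4% of those tested beside 23.7%. Relative to Lenvatinib+anti-PD1, 16 were higher in Co+Len@OVA+anti-PD1 and 22 were lower (median 0.04 beside 0.07), 36.2% beside 29.4%. Of these calls, 23, 16 and 21 held with each of the 9 libraries left out in turn and under both rescalings. The genes given below with a fold change and an adjusted p are among them unless a loss is stated. From libraries 1 and 2 alone, with 3 residual degrees of freedom, 1, 0 and 1 of the genes passed (limma, adjusted p under 0.05), Lcn2 at 0.0420 against Control and Alas1 at 0.0389 between the treatments. Before adjustment 24, 21 and 24 had p under 0.05 in that fit.

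**Figure D4:**
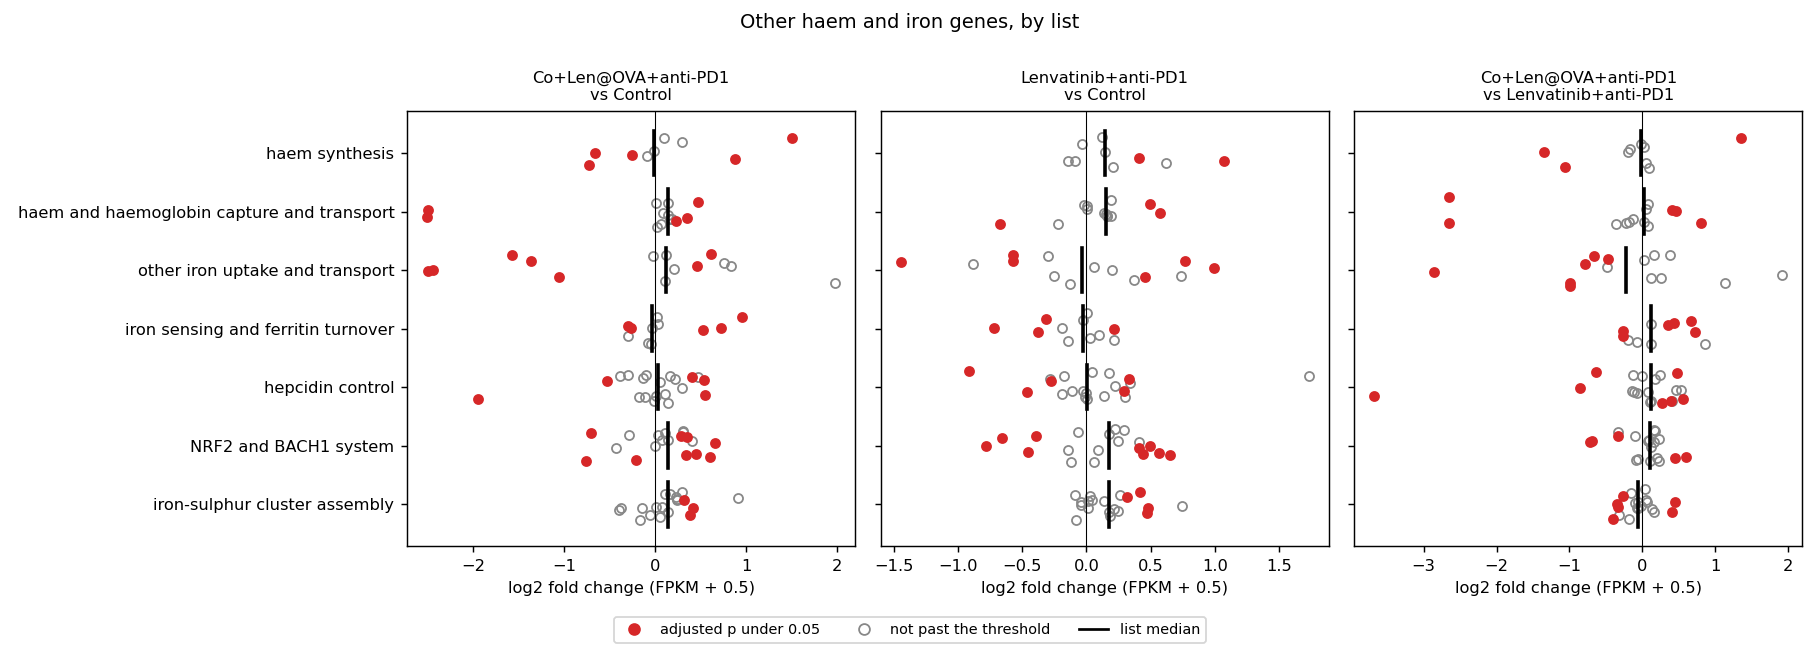
Log2 fold change of FPKM + 0.5 (horizontal axes) of each tested gene of 7 haem and iron lists in the 3 comparisons; filled points passed an adjusted p of 0.05, open points did not, and bars mark list medians. List medians stay near 0, while single genes reach beyond 2 in size, such as Hpx (-2.50) and Lcn2 (-2.44) in Co+Len@OVA+anti-PD1 against Control.

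Haem synthesis was split between its liver and erythroid forms. Alas1, the rate-limiting enzyme outside red cells, was 8.01 ± 0.967 FPKM in Co+Len@OVA+anti-PD1, 17.3 ± 1.28 in Lenvatinib+anti-PD1 and 12.9 ± 0.112 in Control. It fell by 0.66 ± 0.09 against Control in the first (limma adjusted p = 0.00185) and was -1.07 ± 0.09 between the treatments (adjusted p = 0.000151). Its rise of 0.41 ± 0.09 in Lenvatinib+anti-PD1 (adjusted p = 0.0158) was lost without library 2 or 3 of that group or library 3 of Control. Alas2, which carries the 5′ UTR stem-loop printed above, went the other way, at 6.69 ± 0.787, 2.31 ± 0.393 and 2.12 ± 0.803 FPKM, a rise of 1.50 ± 0.23 against Control (adjusted p = 0.00290). Uros, an enzyme of the middle of the pathway, rose in both treatments, by 0.88 ± 0.12 and 1.07 ± 0.12 (adjusted p = 0.00161 and 0.000858). Of the 9 genes, 2 rose and 3 fell against Control in Co+Len@OVA+anti-PD1, and 2 rose and none fell in Lenvatinib+anti-PD1. Between the treatments 1 was higher in Co+Len@OVA+anti-PD1 and 2 lower, while Cpox, Ppox and Fech passed in no comparison. In that order the called shares were 55.6%, 22.2% and 33.3%, beside 33.6%, 23.7% and 29.4% of all genes.

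Carriers and scavengers of haem and haemoglobin were also split. Hemopexin (Hpx), the plasma protein that binds free haem, was 71.7, 88.2 and 80.6 FPKM in Co+Len@OVA+anti-PD1, 514, 477 and 523 in Lenvatinib+anti-PD1 and 734, 283 and 449 in Control. The nanocluster libraries were all lowest, by -2.50 ± 0.29 against Control (limma adjusted p = 0.000843). Haptoglobin (Hp), which binds free haemoglobin, fell likewise, by 2.49 ± 0.38 (adjusted p = 0.00265). Both are made by hepatocytes, and their Control libraries ranked as the hepatocyte marker sum did. Slc48a1, which moves haem out of the phagolysosome, rose by 0.47 ± 0.06 (adjusted p = 0.00169), from 48.1 ± 3.82 to 66.7 ± 0.660 FPKM, and stood at 48.2 ± 0.655 in Lenvatinib+anti-PD1. The haem exporters Flvcr1 and Flvcr2 and the haemoglobin receptor Cd163 passed in no comparison, and Cd163 was near the minimum for testing. Of the 13 genes, 3 rose and 2 fell against Control in Co+Len@OVA+anti-PD1, and 2 rose and 1 fell in Lenvatinib+anti-PD1. Between the treatments 3 were higher in the nanocluster group and 2 lower. Shares called were 38.5%, 23.1% and 38.5% in that order, beside 33.6%, 23.7% and 29.4% of all genes.

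Of 14 other genes of iron uptake and transport, 2 rose and 5 fell in Co+Len@OVA+anti-PD1 against Control, and none was higher and 6 were lower than in Lenvatinib+anti-PD1. In Lenvatinib+anti-PD1 3 rose and 3 fell. Called shares were thus 50%, 42.9% and 42.9%, beside 33.6%, 29.4% and 23.7% of all genes. Lcn2, which binds bacterial iron chelators and is an acute-phase protein, was 6.50 ± 1.42 FPKM in Co+Len@OVA+anti-PD1, 13.2 ± 0.689 in Lenvatinib+anti-PD1 and 37.1 ± 5.42 in Control. It fell by 2.44 ± 0.15 and 1.44 ± 0.15 against Control (limma adjusted p = 6.52e-05 and 0.000725). Slc39a14, a transporter of iron not bound to transferrin, had the same order, at 7.89 ± 0.612, 11.2 ± 0.398 and 16.9 ± 1.48 FPKM (falls of 1.05 ± 0.08 and 0.57 ± 0.08; adjusted p = 0.000169 and 0.00262). Ceruloplasmin (Cp), the ferroxidase that works with ferroportin, fell by 1.56 ± 0.15 in Co+Len@OVA+anti-PD1 (adjusted p = 0.000343). Tfr2, the hepatocyte transferrin sensor, was 0.474 ± 0.0654, 6.56 ± 0.325 and 5.49 ± 3.04 FPKM, a fall of 2.49 ± 0.32 (adjusted p = 0.00133). Slc25a37, which imports iron into mitochondria, rose by 0.46 ± 0.10 (adjusted p = 0.00895). Slc39a8, another metal importer, rose by 0.77 ± 0.09 in Lenvatinib+anti-PD1 (adjusted p = 0.00132) and was 0.11 ± 0.09 in Co+Len@OVA+anti-PD1 (adjusted p = 0.380).

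Among 11 genes that sense iron or turn over ferritin, 3 rose and 2 fell in Co+Len@OVA+anti-PD1, and 1 rose and 3 fell in Lenvatinib+anti-PD1. Between the treatments 4 were higher under the nanocluster and 2 lower. Calls made up 45.5%, 36.4% and 54.5% of the list in that order, beside 33.6%, 23.7% and 29.4% of all genes. Fbxl5, the iron-sensing subunit that marks iron regulatory protein 2 for decay, was 10.5, 10.7 and 10.7 FPKM in Co+Len@OVA+anti-PD1, 6.42, 6.57 and 6.51 in Lenvatinib+anti-PD1 and 6.72, 7.48 and 7.55 in Control. The nanocluster libraries stood apart, by 0.52 ± 0.06 against Control (limma adjusted p = 0.000843) and 0.67 ± 0.06 between the treatments (adjusted p = 0.000202). The iron regulatory proteins themselves changed little as messengers. Ireb2 lay within -0.07 to 0.03 in the 3 comparisons and passed in none, and Aco1 was lower in Co+Len@OVA+anti-PD1 than in Lenvatinib+anti-PD1, at -0.26 ± 0.05 (adjusted p = 0.00667). Ncoa4, the receptor that delivers ferritin to autophagy, was 8.39 ± 0.742, 6.08 ± 0.291 and 10.5 ± 1.97 FPKM. It fell by 0.72 ± 0.13 in Lenvatinib+anti-PD1 (adjusted p = 0.00704), the group in which Fth1 was lowest, and was -0.29 ± 0.13 in Co+Len@OVA+anti-PD1 (adjusted p = 0.121).

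Hepcidin is switched on through BMP and SMAD signalling and through interleukin 6 and STAT3. Of 20 tested genes of hepcidin control, 3 rose and 2 fell in Co+Len@OVA+anti-PD1 against Control, and 4 were higher and 3 lower than in Lenvatinib+anti-PD1. These were 25% and 35% of the list, beside 33.6% and 29.4% of all genes. Smad7, an inhibitor of BMP signalling, was 18.6 ± 0.403 FPKM, against 12.5 ± 0.911 in Lenvatinib+anti-PD1 and 12.5 ± 0.469 in Control, a rise of 0.56 ± 0.07 (limma adjusted p = 0.000882). Tmprss6, the protease that restrains hepcidin, was 17.2 ± 1.82, 31.5 ± 0.858 and 24.9 ± 1.36 FPKM, a fall of 0.53 ± 0.08 (adjusted p = 0.00273). The BMP receptor Acvr1 rose by 0.40 ± 0.07 (adjusted p = 0.00440).

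Hjv, the BMP co-receptor haemojuvelin, was 0.217, 0.623 and 0.442 FPKM in Co+Len@OVA+anti-PD1, 4.16, 25.1 and 12.7 in Lenvatinib+anti-PD1 and 5.17, 1.59 and 3.14 in Control. It was -3.67 ± 0.60 between the treatments (limma adjusted p = 0.00350). Its order in the free-drug libraries was that of 8 striated muscle markers, whose sums there were 27.7, 3957 and 1577 FPKM, and its order in Control was that of the hepatocyte sum. The part of either tissue in the level of Hjv was not tested. The BMP targets Id1 and Atoh8, and Smad6, passed in no comparison of Co+Len@OVA+anti-PD1. In Lenvatinib+anti-PD1, 2 genes of the list rose and 3 fell (25%, beside 23.7% of all genes). Among those that fell was Il6ra, a receptor subunit for interleukin 6, by 0.92 ± 0.19 (adjusted p = 0.0123). Il6 and Bmp6 were under the minimum for testing. In Co+Len@OVA+anti-PD1, Lenvatinib+anti-PD1 and Control, Il6 was 0.767 ± 0.338, 0.185 ± 0.127 and 0.0759 ± 0.0307 FPKM. Bmp6 was 0.350 ± 0.133, 0.482 ± 0.286 and 0.177 ± 0.115 FPKM in the same order.

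Hmox1 is a target of the activator NRF2 (Nfe2l2), and BACH1 represses it until haem releases it. Nfe2l2 was 42.1 ± 2.80, 37.5 ± 2.06 and 32.3 ± 8.72 FPKM in Co+Len@OVA+anti-PD1, Lenvatinib+anti-PD1 and Control, and passed in no comparison (limma adjusted p = 0.109 to 0.507). Bach1 was 7.69 ± 0.971, 5.46 ± 0.172 and 6.16 ± 1.16 FPKM and was not called against Control (adjusted p = 0.111 and 0.476). It was higher in Co+Len@OVA+anti-PD1 than in Lenvatinib+anti-PD1, by 0.45 ± 0.14 (adjusted p = 0.0394), a call lost in 6 of the 9 fits with 1 library left out. Of the 19 genes of this system, 6 rose and 3 fell in Co+Len@OVA+anti-PD1, and 5 rose and 4 fell in Lenvatinib+anti-PD1. Between the treatments 2 were higher in Co+Len@OVA+anti-PD1 and 3 lower. Shares of the list called were 47.4%, 47.4% and 26.3% in that order, beside 33.6%, 23.7% and 29.4% of all genes. The subunits of glutathione's first enzyme went apart in both treatments. The modifier subunit Gclm rose by 0.66 ± 0.05 and 0.57 ± 0.05 (adjusted p = 0.000201 and 0.000444), and the catalytic subunit Gclc fell by 0.76 ± 0.06 and 0.65 ± 0.06 (adjusted p = 0.000246 and 0.000522). Between the treatments Gclm and Gclc did not pass, at 0.10 ± 0.05 and -0.10 ± 0.06 (adjusted p = 0.197 and 0.250). G6pdx, which supplies NADPH, was 0.60 ± 0.10 higher in Co+Len@OVA+anti-PD1 than in Lenvatinib+anti-PD1 (adjusted p = 0.00448). Nqo1, a further NRF2 target, was 4.52 ± 0.864, 7.74 ± 1.03 and 6.21 ± 0.727 FPKM, lower in Co+Len@OVA+anti-PD1 than in Lenvatinib+anti-PD1 (-0.72 ± 0.15, adjusted p = 0.00989). Slc7a11, the cystine transporter, was 5.31 ± 0.173, 4.95 ± 0.392 and 5.19 ± 0.180 FPKM and passed in no comparison.

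Iron-sulphur cluster assembly is the main mitochondrial use of iron beside haem. Of 19 genes, 3 rose and none fell in Co+Len@OVA+anti-PD1 against Control (15.8%, beside 33.6% of all genes), and 4 rose and none fell in Lenvatinib+anti-PD1 (21.1%, beside 23.7%). Between the treatments 2 were higher in Co+Len@OVA+anti-PD1 and 4 lower (31.6%, beside 29.4%). Nubp2, a scaffold of the cytosolic pathway, rose by 0.32 ± 0.07 in Co+Len@OVA+anti-PD1 (limma adjusted p = 0.00908), from 17.4 ± 0.565 to 21.9 ± 1.69 FPKM. Hscb, a chaperone that passes on new clusters, rose by 0.41 ± 0.10 (adjusted p = 0.0165), a call lost without the third library of that group. The core scaffold Iscu was 13.6 ± 1.83, 12.4 ± 1.30 and 12.0 ± 0.761 FPKM and passed in no comparison.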

How the data were processed

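RNA sequencing of 9 tumour libraries was analysed. Per the labels' protocols, polyadenylated RNA went into dUTP strand-marked libraries read in pairs of 150 bases on a NovaSeq. Tools listed in the submitters' processing notes are fastp, edgeR and StringTie. For the aligner, the build and the annotation, the name is not given in the sources used here. The values deposited by the authors are FPKM, although the table is named raw counts. Low values were searched for whole fragments over many trial depths. At the best depth of each library, 21.0% to 22.9% came within 0.05 of one. The 10% expected by chance holds for a single depth set beforehand, and that for the best of many was not computed. Reads were not recovered.

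The members and lists were chosen with earlier results of these data known. The 15353 of 32761 genes that averaged 0.5 FPKM or more were fitted with limma 3.58.1 in R 4.3.3, with trend and robust moderation, on log2(FPKM + 0.5), which understates changes of low genes. All 9 libraries entered a single fit (6 residual degrees of freedom) and p-values were adjusted over all genes tested by the Benjamini-Hochberg method, with a threshold of 0.05. "Rose" and "fell" refer to this threshold. The step was tested on simulated data. Means are given with the SD over 3 libraries.

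Named pathway genes were those with the smallest adjusted p of a list and comparison, at most 3, with a fixed set of regulators and the haem genes; some values are not reported here. Ftmt, Skp1 and Ahsp were not found in the table. In 69 rows the symbol repeats that of an earlier row, none of them of a listed gene. Marker lists of hepatoma, hepatocyte, macrophage, Kupffer, myeloid, erythroid, endothelial, fibroblast, lymphocyte, muscle and fat cells were summed per library. UTR matches come from GENCODE M21 transcripts. The alternatives were other pseudocounts, filters, scalings and variance models, fits of the compared groups only, a replicate block, libraries 1 and 2 only, and leaving out each library.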

Additional observations from a re-analysis of the deposited data

How the results depend on the processing

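Of the 30 fold changes of the 10 genes, 28 moved by less than the SD between replicates under every alternative, and no call was reversed. In Co+Len@OVA+anti-PD1 against Control the sign of Blvrb turned under both scalings and without the second Co+Len@OVA+anti-PD1 library. Signs also turned with 1 Control library left out for Slc40a1, Slc11a2, Trf, Hamp and Blvra between Lenvatinib+anti-PD1 and Control. From libraries 1 and 2 alone the called pathway genes went from 39, 33 and 38 to 1, 0 and 1, and the called members from 7, 1 and 7 to 0, 0 and 2 (Co+Len@OVA+anti-PD1 against Control, Lenvatinib+anti-PD1 against Control, and between the treatments). In the same fit the share of all genes called went from 33.6%, 23.7% and 29.4% to 0.521%, 0.345% and 2.38%. That fit has fewer samples. With 1 library left out in turn, called pathway genes ranged from 23 to 39, from 16 to 37 and from 22 to 46, and called members from 6 to 9, from 1 to 3 and from 6 to 9. Over the same fits, genes called higher among all 15353 ranged from 1611 to 3666, from 1061 to 2374 and from 1218 to 4224. Those called lower ranged from 1238 to 2104, from 835 to 2679 and from 1134 to 2368. Leaving out the third library of Co+Len@OVA+anti-PD1, Lenvatinib+anti-PD1 or Control, or the first of Lenvatinib+anti-PD1, moved a pathway count by over 1.5 times. Without the first Control library 3 members were called between Lenvatinib+anti-PD1 and Control. The calls of all genes rose there too, to 2374 higher and 2679 lower, from 2120 and 1516 in the main fit. The cause was not tested.

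Same-numbered libraries did not deviate together (correlations of -0.248 to 0.0785). No pairing by replicate number was seen, but these correlations cannot exclude one, since other differences between libraries could hide it. With the replicate number as a block, every overall count stayed within 1.5 times, 11 of 42 counts per list and direction moved further, and 29 gene calls were lost and 1 gained.

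Rescaling shifted all genes: the split of higher to lower calls against Control in Co+Len@OVA+anti-PD1 went from 3209 and 1946 to 2474 and 2536 (median-of-ratios) or 2499 and 2435 (upper quartile), and between the treatments from 2657 and 1850 to 2174 and 2324 or 2364 and 2108. Among the members, Ftl1 moved to 0.68 against Control and Blvra to 0.37 and 0.39 between the treatments. Fitting the compared groups alone gave 1921 higher and 1358 lower genes in Co+Len@OVA+anti-PD1 against Control. Without counts, depth sets no stated limit.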
